A study of Homo sapiens with 8 samples.

Results

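The genes described here are 48 that cells use to copy their DNA and to divide, 20 of DNA replication and 28 of mitosis. They were taken by symbol from a table of gene-level array values, in which they occupied 49 of the 29141 features that are not controls and 48 of the 20219 distinct gene symbols. All 48 were found, each on 1 feature except BIRC5, which had 2 (the brighter one was used). The cells were MIV-Luc, the metastatic breast carcinoma line MCF10CA1a carrying a luciferase gene introduced by retrovirus and hygromycin selection. They were transduced with a lentivirus for a scrambled hairpin (MIV-Luc-shSCR) or for 1 hairpin against the decoy receptor IL13Rα2 (MIV-Luc-shIL13Rα2#2), then selected with puromycin and pooled. Each line was mock-treated (− IL-13) or given 20 ng/ml of the cytokine IL-13 for 16 h (+ IL-13), which makes 4 groups with 2 arrays each, 8 arrays in all, from 2 biological replicates per group according to the methods. The comparisons ask what the knockdown, the cytokine and their combination do to expression. Because there is 1 knockdown line with 1 hairpin, an effect of losing IL13Rα2 and any other difference between the lines cannot be told apart.

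Before a cell copies its DNA, the origin proteins CDC6 and CDT1 load the MCM helicase, E2F factors and cyclin E drive the entry into S phase, and PCNA then holds the polymerases on the template. Genes of mitosis are made later, in G2 phase, largely under FOXM1 and the MuvB complexes, and their products condense chromosomes, attach them to the spindle, hold back anaphase until attachment is complete and then release it. The level of both kinds of RNA follows the share of cells that are cycling, which is why they are read as proliferation genes in breast tumors. RNA of whole cultures was measured, so fewer cells in a phase and less RNA per cell cannot be told apart.

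The values are log2 expression on the scale of the RMA method, and differences between groups are log2 changes fitted with limma over all 8 arrays, with p-values adjusted by Benjamini-Hochberg over all 29141 features. The array medians lay between 5.02 and 5.06, Pearson's r across features was 0.992 to 0.993 within a group and 0.988 to 0.993 between groups, and no arrays were identical. IL13RA2, the targeted gene, was lower in knockdown than in shSCR cells, with a mean log2 change over both treatments of -1.40 (limma adjusted p = 0.00105). It also rose with IL-13, by 1.27 in shSCR and 1.76 in knockdown cells (limma adjusted p = 0.0135 and 0.00264). Knockdown (+ IL-13) cells were thus at 8.19 beside 8.08 in mock-treated shSCR cells, a change of 0.11 (limma adjusted p = 0.815). In that comparison the IL13RA2 RNA was not lower. Of 10 markers of epithelial and basal-like breast cells, EPCAM lay at 11.78 to 12.12, KRT5 at 9.46 to 9.98, CDH1 at 9.21 to 9.72, KRT17 at 8.21 to 8.53 and KRT6A at 7.96 to 8.40. EPCAM was on 2 features and KRT17 on 3, and the one with the highest mean was used for each. VIM lay at 7.53 to 8.55, with a mean knockdown effect of -0.65 (limma adjusted p = 0.0214). CDH3 lay at 7.27 to 7.71, KRT14 at 6.54 to 7.04, EGFR at 6.43 to 6.83 and ITGB4 at 5.82 to 6.50. Part of the list was thus of modest signal, and levels of different probes cannot be ranked. Of 10 markers of blood, endothelial and stromal cells, 0 passed an adjusted p of 0.05 in limma in any comparison, the pan-leukocyte marker PTPRC lay at 2.27 to 2.71, the T cell marker CD3E at 3.77 to 4.39 and the fibroblast collagen COL1A1 at 5.996 to 6.289, and the mean over the 10 was 4.98 to 5.03 in shSCR (− IL-13), 4.81 to 4.89 in shSCR (+ IL-13), 4.99 to 5.02 in knockdown (− IL-13) and 4.96 to 4.97 in knockdown (+ IL-13) cells. The endothelial marker PECAM1 lay at 7.71 to 8.82, with a mean knockdown effect of 0.52 (limma adjusted p = 0.0615). Its part in the results below was not tested.

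Only DLGAP5, which encodes a protein that bundles and stabilizes spindle microtubules, passed the test among the 48 genes, and it was lower in knockdown cells. On the shSCR (− IL-13) arrays its log2 expression was 10.08 and 10.12, and on the shSCR (+ IL-13) arrays it was 10.02 and 10.13. In knockdown cells it was 9.50 and 9.45 without IL-13 and 9.38 and 9.28 with it. The 4 knockdown arrays thus lay below all 4 shSCR arrays, with a gap larger than the spread within any group. Averaged over both treatments DLGAP5 fell by 0.68 log2 units on knockdown (95% interval -0.86 to -0.51, 1.61-fold, limma adjusted p = 0.0159). The log2 change was -0.63 among mock-treated cells (adjusted p = 0.147, limma) and -0.74 among IL-13-treated cells (adjusted p = 0.120, limma), and its interaction of -0.11 (95% interval -0.46 to 0.23) left no difference between the treatments detectable. Knockdown plus IL-13 against mock-treated shSCR cells gave -0.77 (adjusted p = 0.0366, limma), less than the 2-fold change that the study's methods ask for in such a comparison and an adjusted p lost without any 1 array (0.0841 to 0.270). The call of the mean knockdown effect was lost without any 1 of the 8 arrays, with limma adjusted p-values of 0.0646 to 0.0954 and log2 changes of -0.71 to -0.66.

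CENPE, the kinesin that carries chromosomes to the spindle equator, had the next largest mean knockdown effect, with the opposite sign. It measured 7.95 and 7.93 in shSCR (− IL-13) cells and 7.88 and 8.09 in shSCR (+ IL-13) cells. In knockdown cells it measured 8.58 and 8.52 without IL-13 and 8.33 and 8.29 with it. All 4 knockdown arrays were above all 4 shSCR arrays, and among the knockdown arrays the mock-treated pair was the higher. The mean knockdown effect was 0.47 (95% interval 0.28 to 0.65) and missed the threshold, with a limma adjusted p of 0.0682. It passed where the prior variance followed intensity (adjusted p = 0.0028) and where the dimmest 30% of features were left out (adjusted p = 0.0314). Among mock-treated cells the change was 0.61 and among IL-13-treated cells 0.32 (limma adjusted p = 0.187 and 0.616), with an interaction of -0.29 (95% interval -0.66 to 0.07, adjusted p = 0.989).

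Promoter sequence is shown for these 2 genes because both are mitotic genes, with opposite signs on knockdown. The windows are the 250 bases before the annotated gene start in RefSeq (GRCh38.p14), 5′ to 3′ on the strand of the gene. Capitals mark the CHR element TTTGAA, bound by MuvB complexes, the CCAAT box CCAAT, bound by NF-Y, and the E2F site in the forms TTTCCCGC, TTTCGCGC, TTTGCCGC and TTTGGCGC, all searched on both strands, none of which contains another. DLGAP5 lies at chr14:55191586-55191835 (minus strand) and CENPE at chr4:103198344-103198593 (minus strand). CDC20 at chr1:43358731-43358980 (plus strand) is shown as another mitotic gene that was lower on every knockdown array, and PCNA at chr20:5126623-5126872 (minus strand) as a replication gene with an E2F site. A second PCNA window, from another annotated start, held 0 E2F and 2 CCAAT matches and is not printed.
DLGAP5: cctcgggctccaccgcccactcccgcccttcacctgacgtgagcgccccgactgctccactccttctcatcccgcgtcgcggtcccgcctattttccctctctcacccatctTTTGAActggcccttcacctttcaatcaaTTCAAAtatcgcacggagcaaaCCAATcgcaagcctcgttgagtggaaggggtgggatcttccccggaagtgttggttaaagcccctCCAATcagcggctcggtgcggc
CENPE: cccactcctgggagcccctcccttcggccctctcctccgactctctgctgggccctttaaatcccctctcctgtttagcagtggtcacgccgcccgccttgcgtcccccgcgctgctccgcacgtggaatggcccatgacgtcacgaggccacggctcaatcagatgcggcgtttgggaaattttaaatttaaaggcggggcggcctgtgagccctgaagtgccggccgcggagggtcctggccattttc
CDC20: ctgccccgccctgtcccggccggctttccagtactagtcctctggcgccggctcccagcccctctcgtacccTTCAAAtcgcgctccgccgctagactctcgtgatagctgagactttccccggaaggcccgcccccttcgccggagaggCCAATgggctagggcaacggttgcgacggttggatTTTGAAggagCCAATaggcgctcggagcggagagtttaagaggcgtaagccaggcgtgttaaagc
PCNA: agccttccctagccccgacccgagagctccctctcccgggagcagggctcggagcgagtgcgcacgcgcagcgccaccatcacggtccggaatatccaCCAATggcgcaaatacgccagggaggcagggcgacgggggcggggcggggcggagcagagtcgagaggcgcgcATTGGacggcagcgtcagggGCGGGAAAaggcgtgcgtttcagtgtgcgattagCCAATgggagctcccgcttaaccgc
DLGAP5 and CDC20 each held 2 CHR and 2 CCAAT matches. The CENPE window held none of the letters searched, which says only that they are not in these bases. The KIF11 window, of the other mitotic gene that was higher on all 4 knockdown arrays, held 1 CHR and 1 CCAAT match. The CDC6 window, of a replication gene lower on all 4, held 3 CCAAT and 0 CHR matches. MCM4 and MCM5, also lower on all 4, had no window. Whether the matches go with the direction of change was not tested.

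Windows were at hand for 39 of the 48 genes, 17 of replication in 21 windows and 22 of mitosis in 27 windows, since some genes have several starts. No window was used for MCM4, MCM5, CCNE2, AURKA, UBE2C, BIRC5, TPX2, TTK and FOXM1. CHR letters were in 12 of the 27 mitosis windows (44.4%) and 1 of the 21 replication windows (4.76%), against 13.3% of all 35116 windows of the same length. CCAAT was in 77.8% of mitosis and 76.2% of replication windows, against 32% of all. E2F letters were in 9 of 21 replication windows (42.9%) and 1 of 27 mitosis windows (3.7%), against 2.79% of all. Both CHR and CCAAT were in 11 mitosis windows (40.7%), against 4.69% of all. A match is a description of the letters and not a bound site.

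As a whole the 48 genes differed little between arrays. Across the 8 arrays, 16 of 20 replication genes and 26 of 28 mitosis genes stayed within a range of 0.5 log2 units. The share of all features within that range is not given here. The median residual SD, which is the spread within groups, was 0.11 for replication and 0.06 for mitosis genes, against 0.14 over all features. The mean of the 20 replication genes was 7.78 and 7.69 in shSCR (− IL-13), 7.78 and 7.72 in shSCR (+ IL-13), 7.62 and 7.67 in knockdown (− IL-13) and 7.73 and 7.66 in knockdown (+ IL-13) cells. These groups overlapped except that the knockdown (− IL-13) arrays lay below all shSCR arrays. The mean of the 28 mitosis genes was 9.27 and 9.24, 9.211 and 9.209, 9.198 and 9.210, and 9.15 and 9.13 in the same order. The mock-treated shSCR arrays were the highest and the IL-13-treated knockdown arrays the lowest, a span of 0.12 log2 units between group means of 9.26 ± 0.02 and 9.14 ± 0.02 (SD, n = 2).

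The median mean knockdown effect was -0.08 for replication and -0.06 for mitosis genes, against -0.01 for all features, with a positive sign in 12 of 48 genes (25%) against 48.2% of all features. For 45 of the 48 the 95% interval stayed within 1.5-fold in either direction, and for all 48 within 2-fold, with DLGAP5, CENPE and CCNE1 outside 1.5-fold. Besides DLGAP5, called as 1 of 48 where 0.446% of all features were called at an adjusted p under 0.05, 0 members passed. At an unadjusted p under 0.05, 5 members were lower (MCM4, MCM5, CDC20, AURKB and DLGAP5) where 6.03% of all features were, and 2 were higher (CENPE and KIF11) where 5.31% were. Together these 7 members became 5 to 17 over the alternatives other than leaving out an array, the highest with the intensity trend and robust prior. The share of all features passing in those alternatives is not given here, so these counts cannot be set against it. All 4 knockdown arrays lay below all shSCR arrays for 5 members (MCM4, MCM5, CDC6, CDC20 and DLGAP5), or 10.4%, against 3.87% of all features. They lay above for CENPE and KIF11, or 4.17%, against 3.26%. In the separate comparisons, each of 2 arrays against 2, a call also needed a change over 2-fold, which no member reached. Their counts of calls therefore cannot be set against that of the mean effect. In mock-treated cells 0 of 48 were called (0.0652% of all features), 1 was higher at an unadjusted p under 0.05 (4.28% of all) and 3 lower (5.23%). In IL-13-treated cells 0 were called (0.0515% of all), 1 was higher (3.44%) and 3 lower (3.63%). Leaving out each array gave 2 to 4 members at an unadjusted p under 0.05 in the first and 1 to 4 in the second comparison. A one-way analysis of variance (the kind of test named in the methods) was also run on the 4 arrays of each comparison of 2 groups. With the 2-fold threshold it could call 0 members in any of the 5, since the largest change of a member was -0.77. At an unadjusted p under 0.05 alone it took 3 to 7 of the 48. The shares of all features in this paragraph are those of the main fit. Counts from other fits have no share beside them and are not read as a result about the members.

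**Figure D1:**
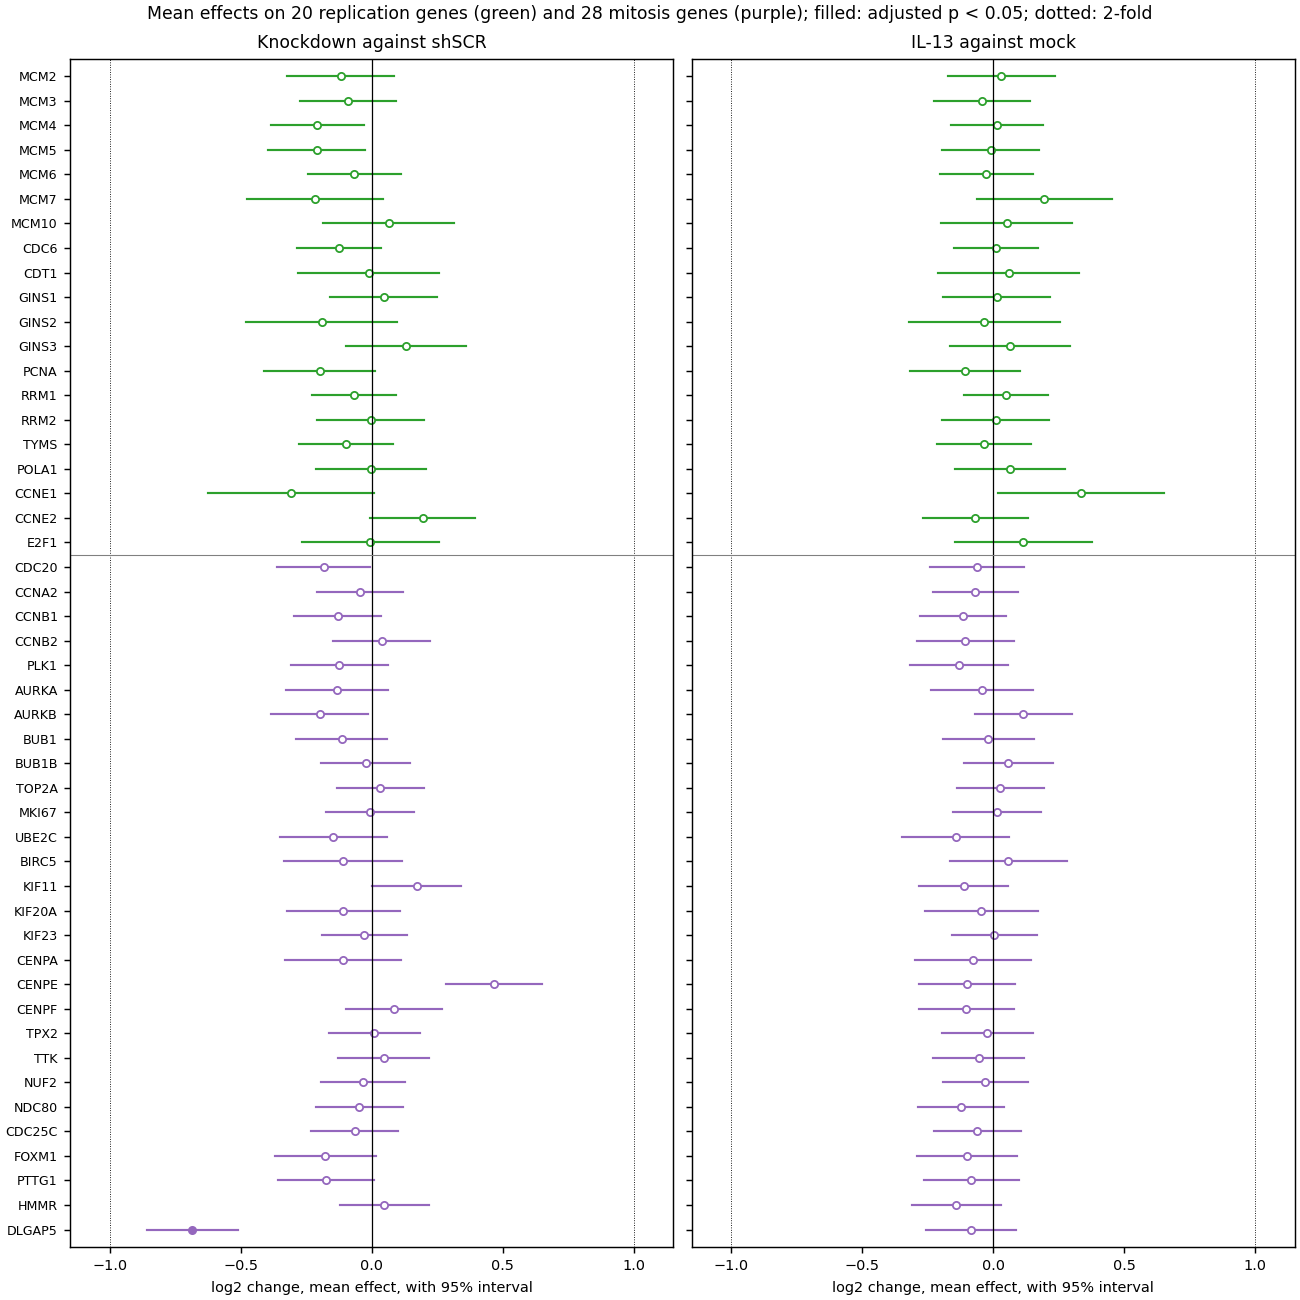
Mean effect of the knockdown over both treatments (left) and of IL-13 over both constructs (right) on each member, as a log2 change (x axis) with its 95% interval from limma. Replication genes are green and mitosis genes purple, filled points passed an adjusted p of 0.05, and dotted lines mark 2-fold. The only filled point is DLGAP5 at -0.68 on knockdown.

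For IL-13, 0 members passed the test. In shSCR cells 0 of 48 were called (0.0583% of all features), 1 was higher at an unadjusted p under 0.05 (CCNE1, where 3.64% of all were higher) and 0 lower (3.15%). In knockdown cells 0 were called (0.0618%), 0 were higher (3.96%) and 0 lower (2.97%). Averaged over both constructs 0 members passed the adjusted p (0.233% of all), 1 was higher at an unadjusted p (CCNE1, 4.88% of all) and 0 lower (3.85%). No member had all 4 IL-13 arrays above all 4 mock arrays (2.85% of all features), and 2 had them below, NDC80 and HMMR (4.17% against 1.93%). The median of this mean effect was 0.01 for replication and -0.07 for mitosis genes against 0.01 for all features. A positive sign was found for 6 of the 28 mitosis genes (21.4%), against 52.6% of all features. For 47 of 48 genes the 95% interval of the mean IL-13 effect stayed within 1.5-fold, with CCNE1 the exception.

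For the combination, knockdown plus IL-13 against mock-treated shSCR cells, 0 of 48 were called where 0.154% of all features were. At an unadjusted p under 0.05, 1 member was higher (CENPE, where 4.79% of all were higher) and 6 were lower (PCNA, CCNB1, UBE2C, FOXM1, PTTG1 and DLGAP5), or 12.5%, against 4.78% of all. The count was lower without any 1 array, where a group keeps 1 array and fewer residual degrees of freedom remain. The reason for the drop was not tested. The median change was -0.02 for replication and -0.10 for mitosis genes, against 0.006 for all features. Of 28 mitosis genes 23 had a negative sign and 5 a positive one (17.9%), where 51.4% of all features were positive. The interaction passed for 0 members (0% of all features), with 0 higher (2.44% of all) and 0 lower (2.03%) at an unadjusted p under 0.05. Its intervals were wide, within 1.5-fold for 37 of the 48, so interactions of moderate size were not detectable with these arrays.

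**Figure D2:**
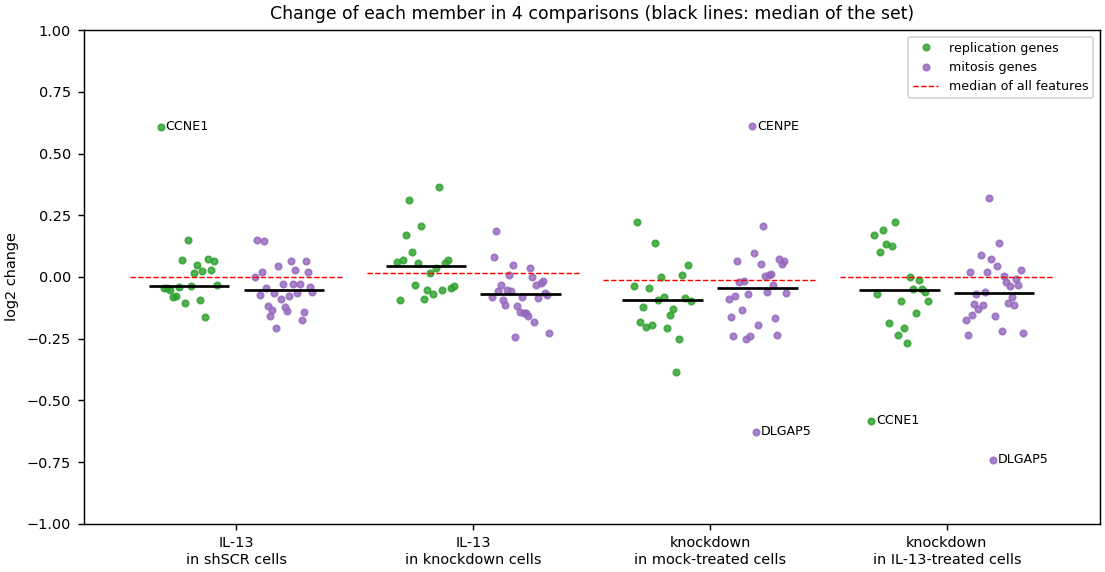
Log2 change of each member (points) in the IL-13 and knockdown comparisons, replication genes green and mitosis genes purple, with the median of each set as a black line and the median of all 29141 features as a dashed line. Most points lie within 0.25 of 0, and CCNE1, CENPE and DLGAP5 stand away from the rest.

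Of the 12 genes for the helicase and its loading, 9 had a negative mean knockdown effect, with a median of -0.10, and 0 passed the test. MCM4, a subunit of the helicase ring, was at 7.66 and 7.58 in shSCR (− IL-13), 7.65 and 7.63 in shSCR (+ IL-13), 7.37 and 7.45 in knockdown (− IL-13) and 7.51 and 7.36 in knockdown (+ IL-13) cells. All 4 knockdown arrays were the lower ones, by a mean of -0.21 (95% interval -0.38 to -0.03, limma adjusted p = 0.375). MCM5, another ring subunit, had an equal change of -0.21 (limma adjusted p = 0.384), with knockdown arrays at 5.82 to 5.97 and shSCR arrays at 6.01 to 6.18. CDC6, which loads the ring at origins, lay at 9.57 to 9.68 on knockdown and 9.70 to 9.77 on shSCR arrays, a change of -0.12.

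MCM7 was the most variable ring subunit. It was at 7.79 and 7.39 in shSCR (− IL-13), 7.74 and 7.49 in shSCR (+ IL-13), 7.19 and 7.22 in knockdown (− IL-13) and 7.50 and 7.63 in knockdown (+ IL-13) cells. The mock-treated knockdown pair was the lowest of the 4 groups, and the other 3 groups overlapped. Its change on knockdown without IL-13 was -0.39 (95% interval -0.75 to -0.02, limma adjusted p = 0.512), and with IL-13 in knockdown cells it was 0.36 (-0.002 to 0.73, limma adjusted p = 0.724). MCM2, also of the ring, had its largest value in shSCR (+ IL-13) cells (6.05 and 5.94) and its lowest in knockdown (+ IL-13) cells (5.85 and 5.67), a change of -0.24 (limma adjusted p = 0.777) between groups that did not overlap. MCM10, which helps switch the helicase on, had a log2 change of 0.21 with IL-13 in knockdown cells (limma adjusted p = 0.834). MCM3 and MCM6, the licensing factor CDT1 and the helicase partners GINS1, GINS2 and GINS3 had mean knockdown effects between -0.19 and 0.13.

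The 5 genes of synthesis and nucleotide supply all had a negative mean knockdown effect, from -0.20 to just below 0, with a median of -0.07. PCNA, the sliding clamp, was at 9.47 and 9.23 in shSCR (− IL-13), 9.26 and 9.12 in shSCR (+ IL-13), 9.20 and 9.00 in knockdown (− IL-13) and 9.07 and 9.02 in knockdown (+ IL-13) cells. The mock-treated shSCR pair had the highest mean and overlapped the IL-13-treated shSCR pair, and the IL-13-treated knockdown pair lay below it without overlap. That change was -0.31 (95% interval -0.60 to -0.01, limma adjusted p = 0.514). The ribonucleotide reductase subunits RRM1 and RRM2, the thymidylate synthase TYMS and the polymerase subunit POLA1 had mean knockdown effects of -0.07, -0.002, -0.10 and -0.004.

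CCNE1, cyclin E1, was the replication gene with the widest range. It was at 5.54 and 4.98 in shSCR (− IL-13) cells and at 5.95 and 5.79 in shSCR (+ IL-13) cells. In knockdown cells it was at 5.19 and 5.26 without IL-13 and 5.44 and 5.13 with it. The shSCR (+ IL-13) pair was above all other arrays, and the shSCR (− IL-13) arrays differed from each other by more than either knockdown pair. Its log2 change with IL-13 was 0.61 in shSCR cells (95% interval 0.16 to 1.06, limma adjusted p = 0.626) and 0.06 in knockdown cells, and the interaction was -0.55 (95% interval -1.18 to 0.09, limma adjusted p = 0.989). Among IL-13-treated cells its log2 change on knockdown was -0.58 (limma adjusted p = 0.592). CCNE2, cyclin E2, had the opposite sign on knockdown, with a mean effect of 0.20 (95% interval -0.01 to 0.40, limma adjusted p = 0.455). E2F1, a transcription factor for replication genes, had 1 array apart, at 5.23 beside 5.73 in knockdown (− IL-13) cells, and its mean knockdown effect was -0.01 (95% interval -0.27 to 0.26).

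**Figure D3:**
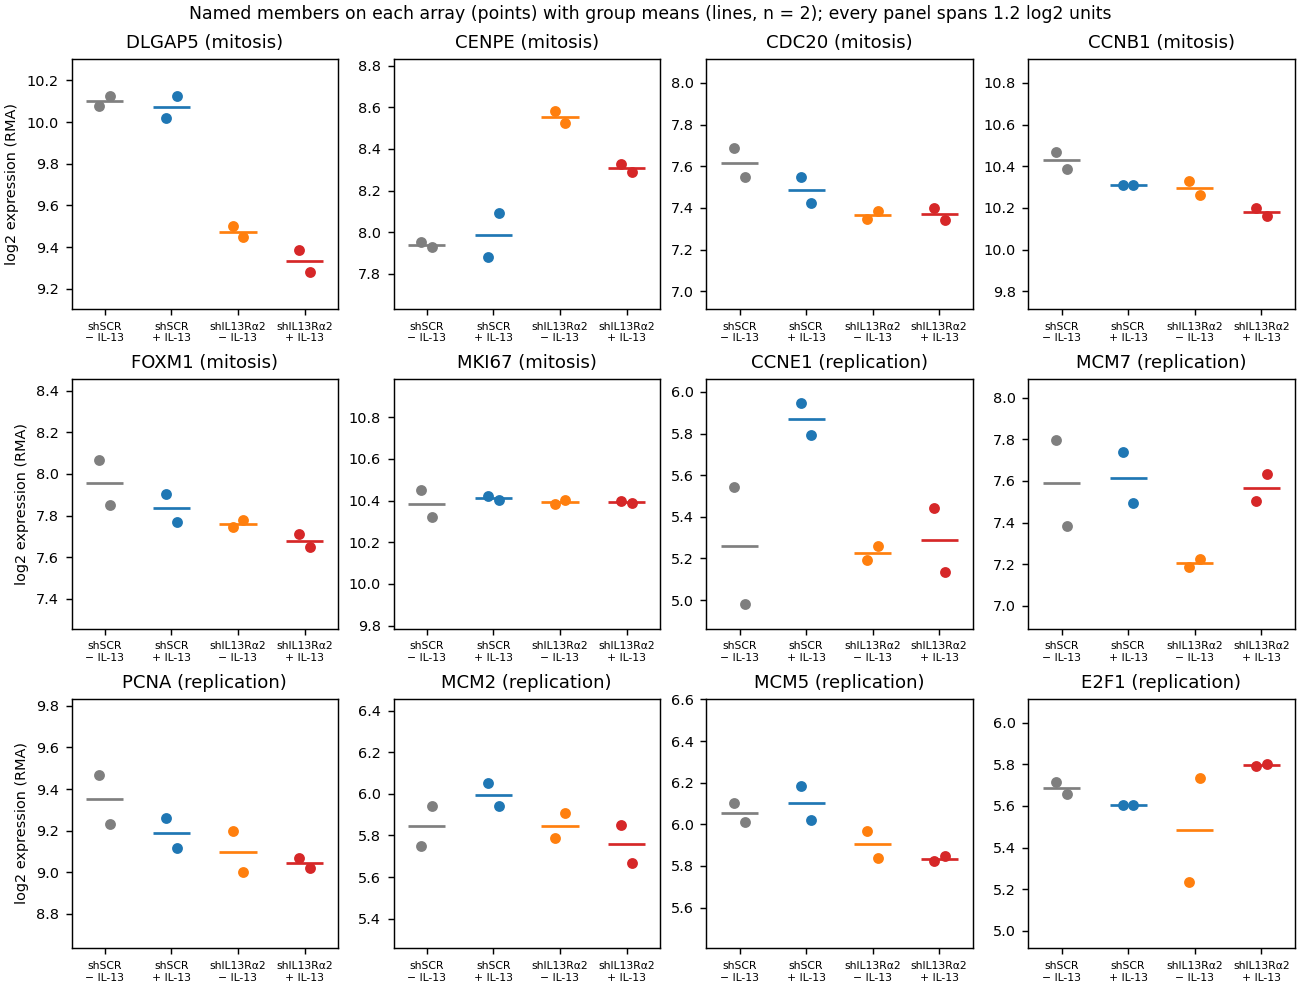
Log2 expression of 12 members on each array (points) with group means (lines, n = 2), every panel spanning 1.2 log2 units. DLGAP5 is low and CENPE high on all 4 knockdown arrays, CCNE1 is highest in shSCR (+ IL-13) cells, and MKI67 stays between 10.32 and 10.45.

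All 7 genes of mitotic entry had a negative sign for IL-13 in both lines and for the knockdown without IL-13, and 0 passed the test. For the knockdown with IL-13, 6 of the 7 were negative. In the same order, 50.5%, 53.9%, 47.1% and 50.4% of all features had a positive sign. IL-13 in shSCR cells and the knockdown without IL-13 share the 2 mock-treated shSCR arrays, so their signs are not independent. CCNB1, cyclin B1 of the mitotic kinase, was at 10.47 and 10.39 in shSCR (− IL-13), at 10.31 on both shSCR (+ IL-13) arrays, 10.33 and 10.26 in knockdown (− IL-13) and 10.20 and 10.16 in knockdown (+ IL-13) cells. The first of these groups was above and the last below all other arrays, and the middle groups overlapped. The change between first and last was -0.25 (95% interval -0.48 to -0.01, limma adjusted p = 0.498). FOXM1, the transcription factor of the mitotic program, was at 8.06 and 7.85, 7.90 and 7.77, 7.74 and 7.78, and 7.71 and 7.65 in the same order of groups, with a change of -0.28 (95% interval -0.55 to -0.01, limma adjusted p = 0.515) between first and last. It followed the same order of group means as CCNB1. PLK1, the kinase that starts mitosis, had a log2 change of -0.25 (limma adjusted p = 0.532) in that comparison, and cyclin A2 (CCNA2), cyclin B2 (CCNB2), the centrosome kinase AURKA and the phosphatase CDC25C had changes of -0.17 to -0.07.

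Of the 4 genes of chromosome structure and its passenger complex, 0 passed the test, and MKI67 and TOP2A varied little over the arrays. MKI67, the Ki-67 antigen of the chromosome surface, was at 10.45 and 10.32 in shSCR (− IL-13), 10.42 and 10.40 in shSCR (+ IL-13), 10.38 and 10.40 in knockdown (− IL-13) and 10.40 and 10.39 in knockdown (+ IL-13) cells. Both knockdown pairs lay within the span of the mock-treated shSCR arrays, and the mean knockdown effect was -0.01 (95% interval -0.18 to 0.17). TOP2A, the topoisomerase that untangles sister chromatids, spanned 10.96 to 11.09, with a mean effect of 0.03 (95% interval -0.14 to 0.20). AURKB, the kinase of the passenger complex, had a mean knockdown effect of -0.20 (95% interval -0.38 to -0.01, limma adjusted p = 0.415), with the lowest shSCR array (6.64) below the highest knockdown array (6.67). BIRC5, survivin of the same complex, had a mean knockdown effect of -0.11 on its brighter and -0.15 on its dimmer feature.

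Beside CENPE, the other 7 kinetochore and checkpoint genes had mean knockdown effects between -0.12 and 0.09. They were BUB1, BUB1B and TTK, kinases and partners of the spindle checkpoint, NDC80 and NUF2, which grip microtubules, CENPA, the histone of the centromere, and CENPF, a protein of the outer kinetochore. NDC80 was at 8.44 and 8.38 in shSCR (− IL-13), at 8.34 on both shSCR (+ IL-13) arrays, 8.40 and 8.45 in knockdown (− IL-13) and 8.20 and 8.27 in knockdown (+ IL-13) cells. Its IL-13 arrays were all below its mock arrays, by a mean of -0.12 (95% interval -0.29 to 0.04, limma adjusted p = 0.673). CENPA had a log2 change of -0.21 with IL-13 in shSCR cells (limma adjusted p = 0.825).

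Among the 5 spindle genes other than DLGAP5, KIF11, the motor that pushes the poles apart, was higher on all 4 knockdown arrays, 10.04 and 9.91 without and 9.83 on both with IL-13 against 9.81 and 9.72 and 9.70 and 9.68 in shSCR cells. Its mean knockdown effect was 0.17 (95% interval 0.002 to 0.34, limma adjusted p = 0.439). HMMR, a hyaluronan receptor that also sits on the spindle, had a mean IL-13 effect of -0.14 (95% interval -0.31 to 0.03, limma adjusted p = 0.647), with IL-13 arrays at 10.17 to 10.28 and mock arrays at 10.30 to 10.41. TPX2, which nucleates spindle microtubules, and the midzone kinesins KIF20A and KIF23 had mean knockdown effects of 0.01, -0.11 and -0.03.

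The 3 genes of anaphase all had a negative sign in both knockdown comparisons. CDC20, which activates the ligase that starts anaphase, was at 7.69 and 7.55 in shSCR (− IL-13), 7.55 and 7.42 in shSCR (+ IL-13), 7.35 and 7.38 in knockdown (− IL-13) and 7.40 and 7.34 in knockdown (+ IL-13) cells. Its knockdown arrays were all below its shSCR arrays, by a mean of -0.18 (95% interval -0.36 to -0.004, limma adjusted p = 0.433). UBE2C, the ubiquitin-conjugating enzyme of that ligase, had a log2 change of -0.29 (limma adjusted p = 0.521) and PTTG1, securin, of -0.26 (limma adjusted p = 0.518) between mock-treated shSCR and IL-13-treated knockdown cells. PTTG1 has near-identical copies in the genome, so its value is uncertain.

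**Figure D4:**
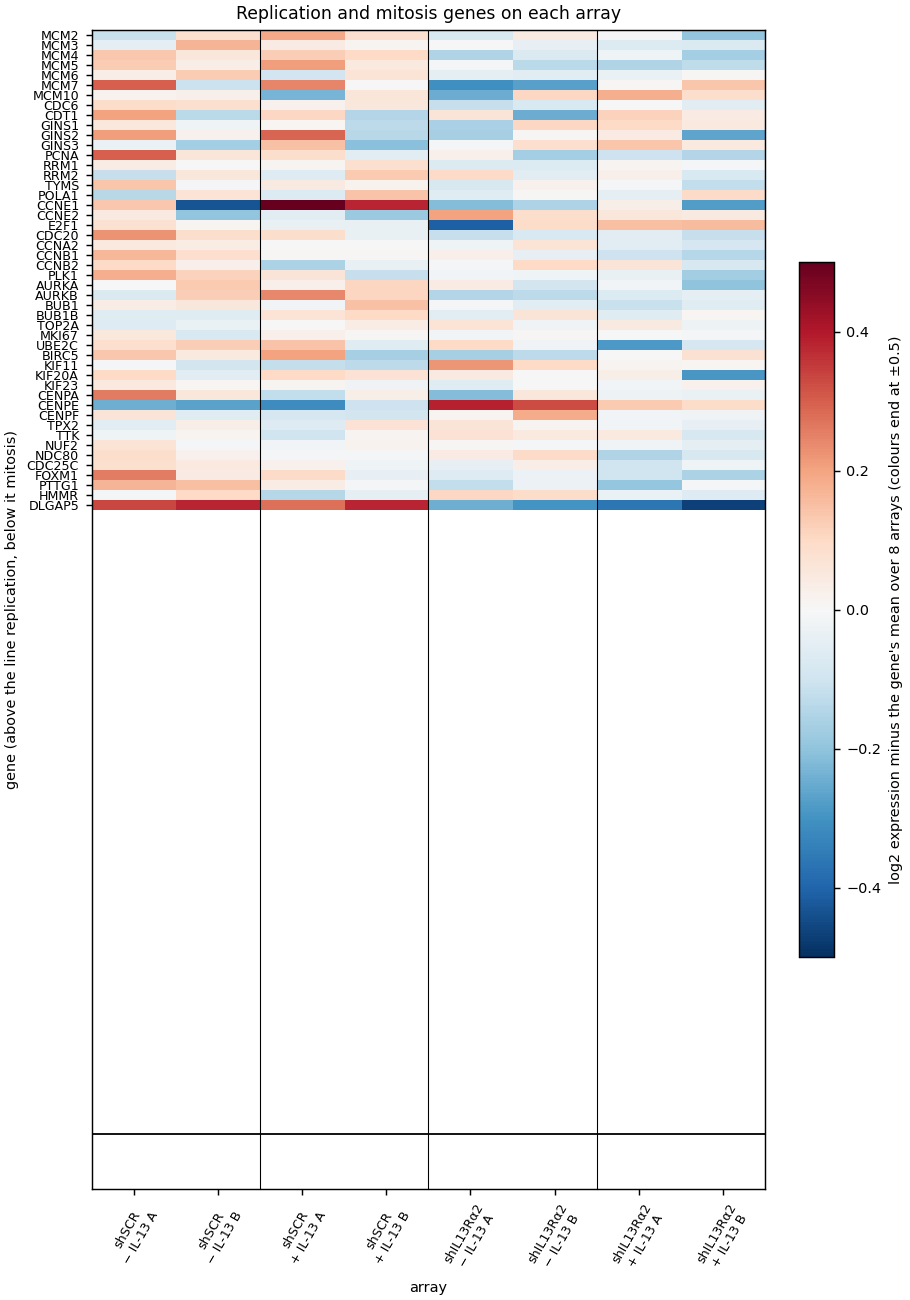
Log2 expression of each member on each array minus its mean over the 8 arrays, colours ending at ±0.5. The replication genes (MCM2 to E2F1) come first and the mitosis genes (CDC20 to DLGAP5) follow. The line named on the axis does not separate the sets. DLGAP5 and CENPE show opposite blocks in the shSCR and knockdown arrays, and most other rows are pale.

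Other genes of the same pathways gave few calls. Among 34 further replication genes and 44 further mitosis genes, 0 passed an adjusted p of 0.05 in limma in any of the 8 comparisons. At an unadjusted p under 0.05 for the mean knockdown effect, 1 of the 34 was higher and 2 were lower. Of the 44, 4 were higher and 4 lower, where 5.31% of all features were higher and 6.03% lower. In the replication genes the largest mean knockdown effects were -0.26 for CDC45, a helicase subunit, and 0.25 for CDC7, the kinase that fires origins (limma adjusted p = 0.370 and 0.262). In the other mitosis genes they were 0.38 for the kinesin KIF20B and -0.30 for the centrosome kinase NEK2 (limma adjusted p = 0.170 and 0.262). Of 23 genes of the G1 cyclins, their kinases, RB and E2F, 1 passed for the mean knockdown effect, where 0.446% of all features did. It was E2F3, an E2F of the activator kind, at 6.14 and 6.07, 5.83 and 5.97, 6.47 and 6.60, and 6.47 and 6.62 over the groups in the order used above. Its knockdown arrays were all above its shSCR arrays, and it rose by 0.54 on average (95% interval 0.35 to 0.73, limma adjusted p = 0.0446), a call lost without any 1 array (adjusted p = 0.112 to 0.183) and where arrays were shifted to one median (adjusted p = 0.0524). CDK6, a kinase of the same step, had a mean effect of -0.38 (limma adjusted p = 0.091). Of 7 CDK inhibitors and 14 p53 targets of arrest, 0 passed in any comparison, with mean knockdown effects of 0.40 for CDKN1B and -0.35 for CDKN1A (limma adjusted p = 0.176 and 0.314), 0.35 for PLK2 (adjusted p = 0.176) and -0.35 for GADD45A (adjusted p = 0.346). Of the 10 epithelial and basal-like markers, VIM, vimentin, was called in 1 of the 8 comparisons, with a mean knockdown effect of -0.65 (limma adjusted p = 0.0214). That call was lost without any 1 array, with effects of -0.69 to -0.61. The part of VIM in the results above was not tested.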

How the data were processed

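RNA from 8 cultures was hybridized to Affymetrix arrays, Human Exon 1.0 ST according to the methods. The deposited feature identifiers are at gene level, and their number and form resemble those of a related gene array, so the array design was not settled here. Per the labels and methods, the authors made log2 values with RMA in Affymetrix Expression Console (version 1 in the submitters' processing notes), and the deposited table gives them for each gene-level feature. RMA sets all arrays to one distribution, so any difference in total RNA between groups is removed. The values were used without further normalization. The genome build was not given in the sources used here.

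Column headings name the construct and treatment and so give the group of each array, but they hold running numbers and no replicate numbers. The arrays of a group are therefore called A and B in column order. Of 33297 features, 4156 controls were left out. For a gene on several features, the one with the highest mean over the arrays was used. A linear model of the 4 groups was fitted over the 8 arrays (limma 3.58.1, R 4.3.3), with 4 residual and 3.86 prior degrees of freedom and no filter on signal. In the 5 comparisons of 2 groups a call needed an adjusted p (Benjamini-Hochberg) under 0.05 and a change over 2-fold, the thresholds of the study. No member reached a 2-fold change in any of the 5, so 0 members could be called there. Mean effects and the interaction needed the adjusted p only. Intervals are 95%. The procedure was tested on simulated data.

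The members and all gene lists were chosen with earlier results of these data known. Genes named are the 3 with the largest change in each of 4 comparisons and each set, those with an adjusted p under 0.05, and MKI67, PCNA, TOP2A, CCNB1, MCM2, E2F1 and FOXM1 for their roles. From other lists of the pathways they are those past the test and the 2 with the largest mean knockdown effect, and further cell type markers were named after their values were seen. The remaining members were named after their values were seen, so that each is accounted for. Promoter windows came from RefSeq (GRCh38.p14), matched by symbol.

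Results were recomputed with a one-way analysis of variance or limma on the 4 arrays compared, with all arrays shifted to one median or quantile-normalized again, with a prior variance that follows intensity and is robust, without the dimmest 30% of features, without the fold threshold, with means for medians, and without each array.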

Additional observations from a re-analysis of the deposited data

How the results depend on the processing

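No paired analysis was possible because the columns of the deposited table carry no replicate numbers. For the mean knockdown effect 1 member was called (DLGAP5), but 2 (DLGAP5 and CENPE) with the intensity trend and robust prior or without the dimmest 30% of features, and 0 without any 1 array. Leaving out each array gave DLGAP5 effects of -0.711 to -0.657. Its adjusted p from limma was 3.26e-05 to 0.016 over the other alternatives. Without the fold threshold 1 member (DLGAP5) was called for knockdown plus IL-13 against mock-treated shSCR cells. The mean change of replication genes with IL-13 in shSCR cells was 0.0155, where their median was -0.035. Leaving out each array moved that median from -0.048 to 0.0428, and the median for IL-13 in knockdown cells from -0.0192 to 0.085, so neither has a settled sign. The replication median of the mean IL-13 effect (0.01) also changed sign, at -0.00434 to 0.0372, as did the interaction's, at 0.00436 to 0.0692 without each array but -0.00643 with arrays shifted to one median. For knockdown plus IL-13 it ran from -0.0599 to -0.00807. For mitosis genes the median kept its negative sign throughout, at -0.058 to -0.0334 for IL-13 in shSCR cells, -0.11 to -0.0512 for IL-13 in knockdown cells, -0.0616 to -0.0282 for the knockdown in mock-treated and -0.0777 to -0.0367 in IL-13-treated cells, -0.109 to -0.0844 for both together, -0.0846 to -0.0553 for the mean IL-13 effect and -0.0751 to -0.0392 for the mean knockdown effect. The cause of these shifts was not tested. With 2 arrays a group, the number of arrays limits the precision.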
